A study of Mus musculus with 2 samples.

Results

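The 10 genes described here encode the NF-kB transcription factors and the proteins that the pathway induces to restrain or tune itself. They were taken by symbol from the 31053 genes in the files: the factors Nfkb1, Nfkb2, Rel, Rela and Relb, and the feedback genes Nfkbia, Nfkbiz, Tnfaip3, Bcl3 and Birc3. All 10 were found, each under a single identifier. They were measured by droplet single-cell RNA sequencing (10x Genomics, 3' end) in LSK cells, the bone marrow fraction without lineage markers that carries Sca1 and c-Kit, where blood stem cells and early progenitors are found. The irradiated library came from C57BL/6J mice 6 to 8 weeks old, taken 15 days after a dose of 5 Gy to the whole body. The control library came from mice of the same strain and age without irradiation. There was 1 library per group and the number of mice behind each is not given in the sources used here, so there is no replicate error, no test was possible, and every interval below covers counting error only.

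NF-kB factors act as dimers of Rel family proteins. In a resting cell the dimers are held in the cytoplasm by IkB proteins, above all the product of Nfkbia. Signals from tumour necrosis factor, interleukin-1 and Toll-like receptors activate a kinase that marks IkB for destruction, and the freed dimers enter the nucleus and switch on inflammatory and survival genes. Among the genes they induce are their own brakes, so that a fresh supply of IkB and of the ubiquitin-editing enzyme encoded by Tnfaip3 ends the response. A slower branch of the pathway releases dimers of Relb with the processed product of Nfkb2. In blood stem and progenitor cells the pathway is known for its part in survival, in the response to inflammatory cytokines and in lymphoid and myeloid differentiation.

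Promoter sequences are shown first because NF-kB genes are known targets of their own family, which binds a short DNA element called the kB site. The RefSeq promoter table (GRCm38.p6, 250 bases before to 50 after each start site) holds 7 of the 10 members (Nfkb2, Rel, Rela, Nfkbia, Tnfaip3, Bcl3 and Birc3). A match to the kB consensus on either strand was found for 5 of these 7, namely Nfkb2, Rel, Nfkbia, Tnfaip3 and Bcl3, and for 5.14% of the 27025 gene symbols in the table. Some genes have several start sites in the table, and each was searched. The stretches below are printed 5′ to 3′ on the gene's own strand, with matches to the kB consensus in capitals, merged where matches overlap. Nfkb2 has matches at each of its 3 start sites in the table, 6 as listed. The promoters at chr19:46305445-46305744 and chr19:46305680-46305979 overlap, and the same match is listed for both. The overlapping pair of matches shown lies in an annotated first exon, so 30 bases are printed. A further match of that pair's promoter, 11 bases upstream, lies outside them. A match is a description of the letters and not evidence of binding in these cells.
Nfkbia, chr12:55492648-55492777, minus strand: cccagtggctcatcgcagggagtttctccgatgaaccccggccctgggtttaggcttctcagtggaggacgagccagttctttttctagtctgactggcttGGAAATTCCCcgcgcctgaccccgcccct
Rel, chr11:23770971-23771099, minus strand: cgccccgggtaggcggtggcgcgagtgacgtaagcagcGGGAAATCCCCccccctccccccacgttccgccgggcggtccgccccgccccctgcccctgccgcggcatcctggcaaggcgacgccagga
Tnfaip3, chr10:19015411-19015540, minus strand: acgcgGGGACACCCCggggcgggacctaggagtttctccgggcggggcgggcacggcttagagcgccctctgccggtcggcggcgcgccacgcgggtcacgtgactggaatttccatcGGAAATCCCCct
Nfkb2, chr19:46304689-46304718, plus strand: gatcgtcacGGGAATTCCCCccctcggggg
The Nfkbia match starts 29 bases upstream of the RefSeq start site. The Tnfaip3 stretch holds a match at 12 bases and another at 125 bases upstream, and the overlapping pair in Rel starts 92 bases upstream.

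After filtering, 5112 irradiated cells had a median of 29615 unique molecular identifiers (UMIs, each standing for 1 captured RNA molecule) and 7189 control cells had a median of 16084. The sort genes were present in both libraries: Ly6a, which encodes Sca1, had a UMI in 89.1% of irradiated and 81.6% of control cells, and Kit in 80.5% of irradiated and 82.8% of control cells. The median mitochondrial share of UMIs was 3.24% in irradiated and 4.38% in control cells. Levels are given as CPM, the UMIs of a gene scaled to a total of 1000000 in its library or cell class. Markers of mature neutrophils summed to 68.4 CPM in irradiated and 348 CPM in control cells (5 of 8 markers with a mean of 5 CPM or more), those of the B lineage to 64.7 CPM in irradiated and 182 CPM in control cells (6 of 8), those of the T/NK lineage to 324 CPM in irradiated and 222 CPM in control cells (3 of 10) and those of macrophages to 18.0 CPM in irradiated and 16.7 CPM in control cells (1 of 8). No marker of these lists was at 0 in both libraries. The libraries shared 16 barcodes, 11 of them among kept cells. The part of depth, of mitochondrial share and of these other cells in the results below was not tested.

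Over all kept cells the members stood lower in the irradiated library or close to the control level, and none was called higher. A gene was called higher or lower by size alone, at a log2 CPM ratio of at least 0.32 either way. Of the 9 members whose mean reached 5 CPM, 6 were called lower (Rel, Relb, Nfkbia, Nfkbiz, Tnfaip3 and Birc3), against 28.3% of the 9032 genes measured at that level, and 0 were called higher, against 17.2%. At least 2-fold lower were 2 members, Relb and Nfkbiz, against 4.81% of genes, and 0 were 2-fold higher, against 1.41%. Relb came short of 2-fold under 5 of 10 alternatives, with log2 ratios between -0.97 and -0.84. Nfkb2 averaged 4.97 CPM over both libraries and came just short of the minimum, while Relb at 8.56 and Bcl3 at 7.90 CPM were the nearest above it.

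Among the factors, Nfkb1 (ENSMUSG00000028163, chromosome 3, 135584655 to 135691547, GRCm38), which encodes the precursor of a DNA-binding subunit, stood at 74.4 CPM in irradiated cells (95% interval 73.1 to 75.7), against 90.0 CPM in control cells (88.4 to 91.6). Its log2 ratio of irradiated over control was -0.27 (95% interval -0.31 to -0.24), short of the size used for a call. Rela (chromosome 19, 5637483 to 5648130), the activating subunit of the classical dimer, had 27.8 CPM in irradiated and 32.5 CPM in control cells (log2 -0.22, -0.28 to -0.16). These classical subunits thus lay below the control level by less than a call, and Rel and Relb by more. Rel (ENSMUSG00000020275, chromosome 11, 23736847 to 23770970), which encodes the c-Rel subunit of lymphoid cells, stood at 30.0 CPM in irradiated and 48.1 CPM in control cells, a log2 ratio of -0.68 (-0.73 to -0.63). Relb (ENSMUSG00000002983, chromosome 7, 19606217 to 19629438), the activating subunit of the slower branch, had 5.57 CPM in irradiated and 11.6 CPM in control cells and was 2.07-fold lower (log2 -1.05, -1.17 to -0.93). Nfkb2 (chromosome 19, 46304320 to 46312385), the partner of Relb, had 4.58 CPM in irradiated and 5.36 CPM in control cells (log2 -0.23, -0.38 to -0.08), and overlaps Psd on the opposite strand.

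Among the feedback genes, the largest difference was that of Nfkbiz (ENSMUSG00000035356, chromosome 16, 55811375 to 55838899), which encodes a nuclear IkB protein that can activate as well as repress target genes. It stood at 25.4 CPM in irradiated and 65.5 CPM in control cells and was 2.57-fold lower, a log2 ratio of -1.36 (-1.42 to -1.31). Of the 9032 measured genes, 190 had a lower ratio. Birc3 (chromosome 9, 7848699 to 7873186), a ubiquitin ligase of the tumour necrosis factor receptor complex, had 9.12 CPM in irradiated and 17.0 CPM in control cells (log2 -0.89, -0.99 to -0.80). Nfkbia (ENSMUSG00000021025, chromosome 12, 55489410 to 55492647), the classical IkB protein, stood at 94.6 CPM in irradiated and 139 CPM in control cells, a log2 ratio of -0.55 (-0.58 to -0.52). Tnfaip3 (chromosome 10, 19000910 to 19015657) had 12.9 CPM in irradiated and 16.9 CPM in control cells (log2 -0.39, -0.48 to -0.31). All these feedback genes stood lower, and Bcl3 came closest to the control level. Bcl3 (chromosome 7, 19808462 to 19822770), a nuclear IkB protein that binds homodimers, had 7.59 CPM in irradiated and 8.22 CPM in control cells, a log2 ratio of -0.11 whose interval took in 0 (-0.23 to 0.0026). Bcl3 overlaps Gm16174 and Gm16175 on the opposite strand, and whether counting used strand is not given in the sources used here, so the values of Bcl3 and Nfkb2 are uncertain to that extent.

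**Figure D1:**
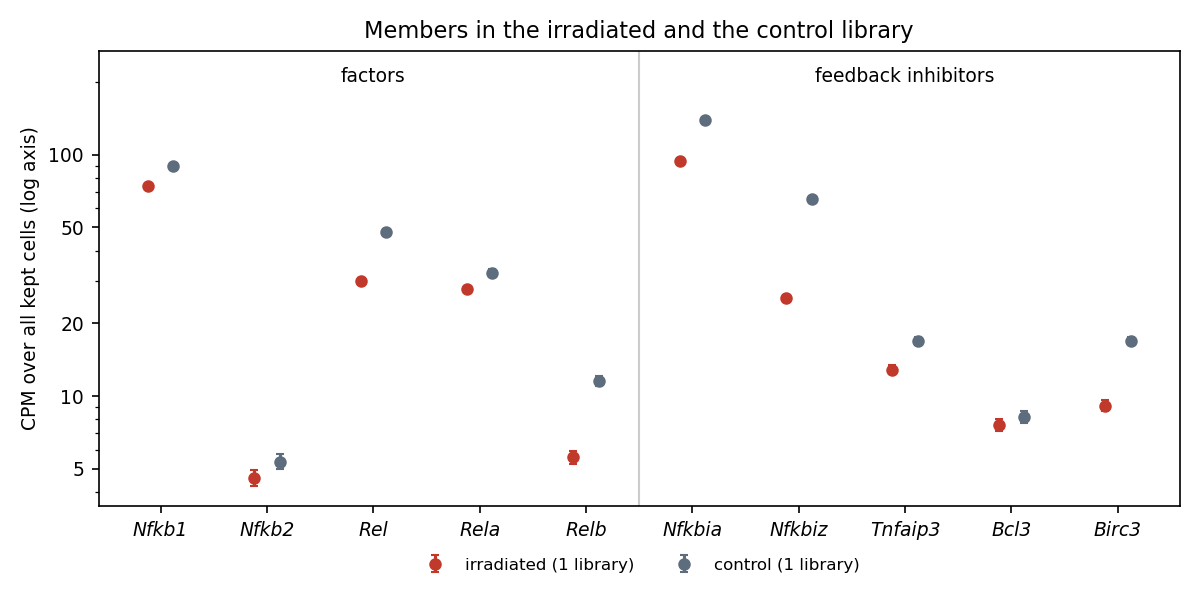
Level of each gene in CPM (log axis) over all kept cells of the irradiated library (red) and the control library (grey), 1 library each, with exact Poisson 95% intervals as bars, many of them shorter than the points. The irradiated point lies below the control point for every gene, by the widest gap for Nfkbiz (25.4 CPM irradiated, 65.5 CPM control) and by the narrowest for Bcl3 (7.59 CPM irradiated, 8.22 CPM control).

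These sizes depend on the scaling. The median log2 ratio of all 9032 genes was -0.06, trimmed-mean (TMM) scaling shifted it by 0.17 and median-of-ratios scaling by 0.21. Of all genes called, 37.8% were higher as reported, 62.1% with TMM, 67.8% with median of ratios and 29.3% with totals that leave out mitochondrial and ribosomal protein genes. Of the 6 members called lower, 5 were called lower under every scaling and Tnfaip3 was not, with log2 ratios of -0.22 and -0.18 under TMM and median of ratios. Bcl3 changed sign under these (0.05 and 0.10), and no other member did.

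For shares of cells, every cell was first thinned to 5000 UMIs, which left 5053 irradiated and 7123 control cells. Nfkbiz had a UMI in 12.4% of irradiated (95% interval 11.5 to 13.3) and 27.1% of control cells (26.1 to 28.2). Nfkbia had one in 33.0% of irradiated (31.7 to 34.3) and 41.9% of control cells (40.7 to 43.0), and Relb in 3.23% of irradiated (2.76 to 3.75) and 6.12% of control cells (5.57 to 6.70). Each of these shares lay lower in irradiated cells, with intervals apart. No member at all was seen in 26.3% of irradiated cells (25.1 to 27.5) and 16.9% of control cells (16.0 to 17.8), and at least 4 members were seen in 3.92% of irradiated (3.40 to 4.49) and 8.68% of control cells (8.03 to 9.35). No small group of cells held the Nfkbiz signal: the 10 cells with the most UMIs held 2.59% of its UMIs among irradiated cells and 1.63% among control cells. Without thinning the deeper irradiated cells gave a higher share than the control cells for Nfkb1 (84.4% of irradiated, 75.2% of control cells) and Rela (56.6% irradiated, 44.0% control), against their CPM, and no order is read from those shares. Summed over thinned cells, the UMIs of the feedback genes over those of the factors came to 1.09 in irradiated and 1.41 in control cells.

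Some members were seen together in the same cells. Among irradiated cells with a UMI of Nfkbia, 12.5% had one of Tnfaip3, against 4.07% of those without. Among control cells the shares were 11.9% with and 4.97% without Nfkbia. Nfkbiz was seen in 17.4% and 9.95% of irradiated cells with and without Nfkbia, and in 34.8% and 21.6% of control cells with and without it. For Nfkb1 the shares with and without Nfkbia lay close, at 34.3% and 31.7% in irradiated and 36.8% and 36.5% in control cells. All these shares were taken over all thinned cells of a library, and the cell classes described below were not held fixed. Of irradiated erythroid-primed cells, 62.9% had a UMI of Nfkbia and 19.96% one of Tnfaip3. Of irradiated neutrophil-primed cells, 22.9% had one of Nfkbia and 2.03% one of Tnfaip3. The part of class in the shared detection was not tested.

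Because the libraries held different mixes of progenitors, the members were also followed by cell class. Cells were clustered with the members and their pathway lists left out, and a cluster took a class name from its markers. HSC-like cells (Hlf, Procr and Pdzk1ip1, with the early gene Egr1 or the cytokine gene Ltb also among the leading genes) numbered 344 irradiated and 1699 control. Lymphoid-primed cells (Dntt and Ccr9, with the cytokine gene Il12a) numbered 295 irradiated and 1139 control, megakaryocyte-primed cells (Pf4, Itga2b and Gp5) 498 irradiated and 212 control, and neutrophil-primed cells (Elane and Ms4a3, with the monocyte gene Ly6c2 and the later granule genes S100a8 and Lcn2 also among their leading genes) 1087 irradiated and 113 control. Erythroid-primed cells (Car1, Klf1 and Aqp1) numbered 484 irradiated and 48 control, too few in the control library for a comparison. Over both libraries together their erythroid markers summed to 4830 CPM. Their mast cell and basophil markers summed to 657 CPM, the most of any class, with 198 CPM in the next. A cluster led by Wfdc17, Ccl3 and Ccl4, which met no marker list, held 171 irradiated and 1438 control cells. A cluster led by the S phase genes Ung and E2f1 held 994 irradiated and 982 control cells, and another led by the mitotic genes Nusap1, Cenpf and Top2a held 1043 irradiated and 1275 control cells. An alternative clustering with 30 neighbours from all cells split the Nusap1-led class. A cluster with Dntt and Arpp21 also in front held 368 irradiated and 831 control cells, and another without them 677 irradiated and 493 control cells. The Nusap1-led class thus mixed lineages in different shares by library. The part of this in its differences below was not tested. HSC-like cells made up 6.73% of the irradiated and 23.6% of the control cells, and neutrophil-primed cells 21.3% of the irradiated and 1.57% of the control cells. Mature neutrophil markers summed to 995 CPM over the neutrophil-primed class of both libraries together. Over whole libraries they came to 68.4 CPM irradiated and 348 CPM control, so the control cells of this class held most of them. The class was thus made up differently in the libraries. The part of this in every neutrophil-primed comparison below was not tested.

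For each member the highest class of at least 100 cells differed from the lowest by a larger factor than the libraries did over all cells. Nfkbiz was highest in the Ccl3-led cluster, at 94.2 CPM in irradiated and 129 CPM in control cells, and lowest in neutrophil-primed cells, at 13.2 CPM in irradiated and 10.8 CPM in control cells. Lymphoid-primed and HSC-like cells came next below the Ccl3-led cluster, and their intervals overlapped each other in both libraries. Rel was high on the lymphoid side. It had 67.6 CPM in irradiated and 64.8 CPM in control lymphoid-primed cells, and 65.7 CPM in irradiated and 68.5 CPM in control cells of the Ccl3-led cluster, with overlapping intervals. HSC-like cells had less, 45.3 CPM irradiated and 43.1 CPM control. The erythroid-primed cells had the lowest Rel of the irradiated library, 11.2 CPM.

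Nfkbia and Tnfaip3 had another order. In the irradiated library both were highest in erythroid-primed cells, where Nfkbia stood at 278 CPM in irradiated and 288 CPM in control cells and Tnfaip3 at 49.1 CPM in irradiated and 87.4 CPM in control cells. The control values rest on 48 cells, of which 10 held 83.5% of the Tnfaip3 UMIs. The class was also the highest in mast cell and basophil markers, and the part of such cells in these levels was not tested. For Tnfaip3 the interval of the irradiated erythroid-primed cells overlapped that of an unnamed cluster with Cd74, H2-Eb1, Trbc1 and Xcr1 in front (47.5 CPM, 104 irradiated cells). That cluster also had the highest Relb (33.4 CPM), Nfkb2 (23.5 CPM) and Birc3 (32.3 CPM) of the irradiated library, each with an interval apart from the next class. Its Rel (81.5 CPM) overlapped that of lymphoid-primed cells. Few of its cells carried these values: 10 of the 104 irradiated cells held 89.5% of the Relb, 62.5% of the Nfkb2 and 56.4% of the Birc3 UMIs. The counting intervals do not cover this. In neutrophil-primed cells the same library had its lowest Nfkb1 (60.3 CPM), Rela (21.7 CPM), Relb (2.78 CPM), Nfkbia (52.9 CPM), Nfkbiz and Tnfaip3 (3.96 CPM), each with an interval apart from the class above it. Bcl3 was highest in HSC-like cells, at 13.9 CPM in irradiated and 11.7 CPM in control cells, with an interval that overlapped the Ccl3-led cluster, and it was lowest in irradiated erythroid-primed cells (1.45 CPM). Nfkb1 and Rela varied least, with the highest class 2.07 and 1.95 times the lowest in the irradiated library, against 12.4 times for Tnfaip3.

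**Figure D2:**
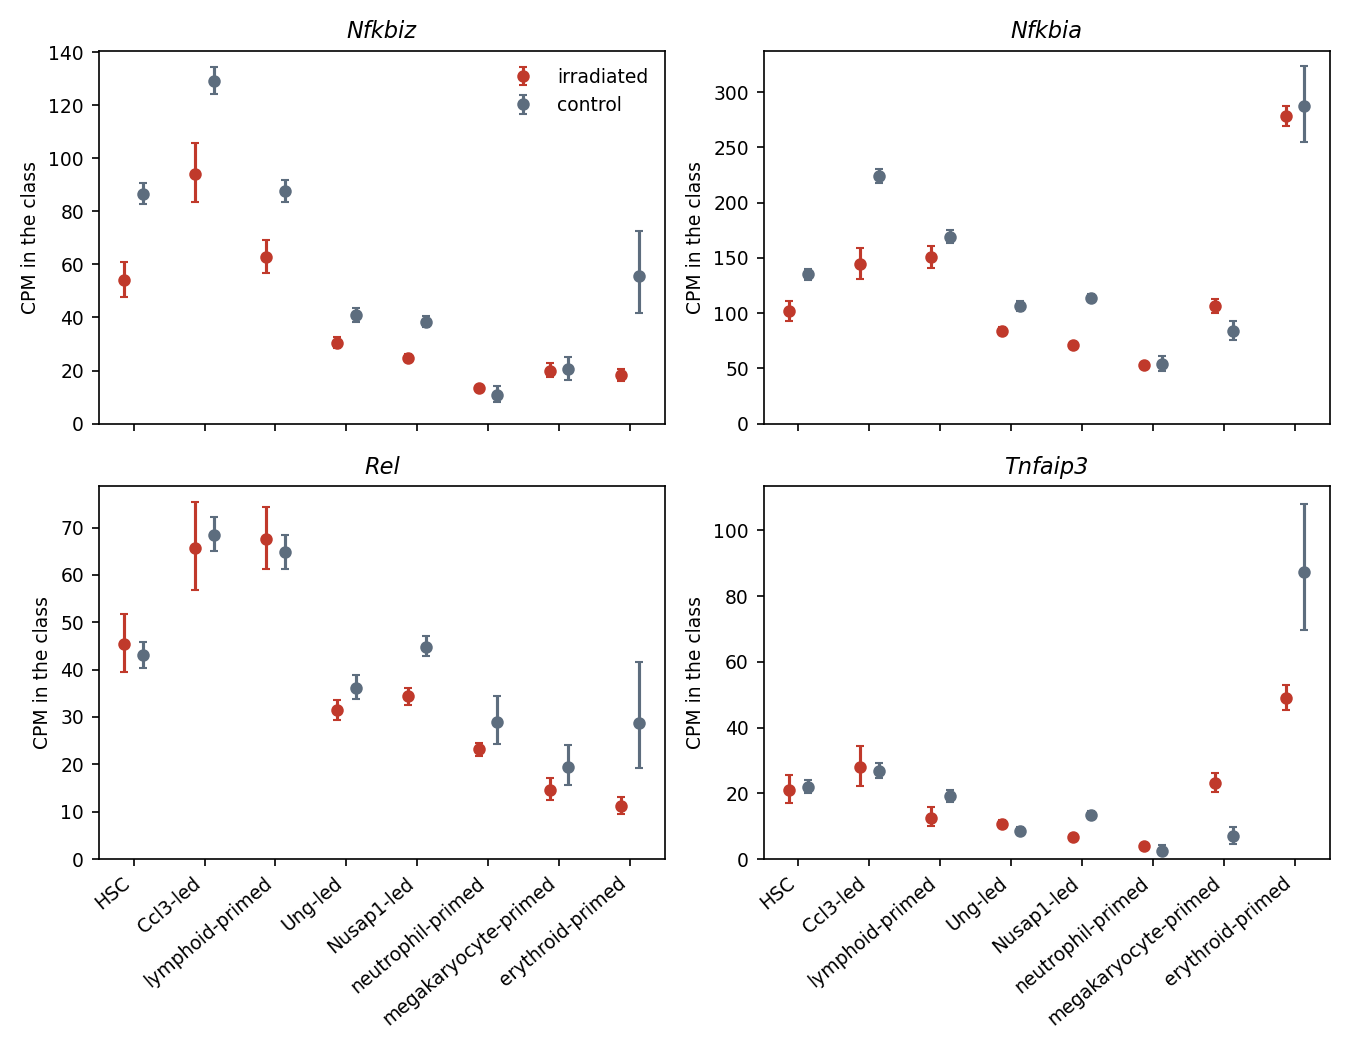
CPM of Nfkbiz, Nfkbia, Rel and Tnfaip3 in 8 cell classes of the irradiated (red) and control (grey) library, with exact Poisson 95% intervals; each panel has its own linear axis from 0. Nfkbiz and Rel were high in the classes on the left and Nfkbia and Tnfaip3 peaked in erythroid-primed cells of the irradiated library (278 CPM for Nfkbia, 49.1 CPM for Tnfaip3).

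Over the 17 class-by-library profiles of at least 100 cells, the closest pairs of members on log2(CPM + 1) were Relb with Birc3 (r = 0.92) and Nfkbia with Tnfaip3 (r = 0.88), while Nfkbia and Bcl3 had r = -0.05. The genes most like Nfkb1 over these profiles were Hook3 (r = 0.93), Synrg, Rnase6, Ccndbp1 and Ctdsp2 (r = 0.92). Those most like Nfkbia were Irf1, a transcription factor gene of the interferon and NF-kB responses (r = 0.88), then Adcy7, Cnppd1, Ssbp3 and the AP-1 gene Junb (r = 0.83). The profiles share libraries and depth, and the values are a description.

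Within classes Rel did not stand lower in the irradiated stem and lymphoid cells. In HSC-like cells Rel had a log2 ratio of 0.07 (-0.14 to 0.29), in lymphoid-primed cells 0.06 (-0.10 to 0.22) and in the Ccl3-led cluster -0.06 (-0.28 to 0.15). None of these is a call, whereas over all cells Rel was called lower. It was called lower in megakaryocyte-primed cells (14.7 irradiated and 19.5 control CPM, log2 -0.41), neutrophil-primed cells (23.2 irradiated and 29.0 control CPM, -0.32) and the Nusap1-led cluster (34.4 irradiated and 44.9 control CPM, -0.38). The megakaryocyte-primed call ended under 5 of 10 alternatives and the neutrophil-primed one under 8 of 11. Nfkb1 and Rela also stayed short of a call in every class, with log2 ratios from -0.27 to 0.11 for Nfkb1 and from -0.20 to 0.24 for Rela.

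Relb and Nfkbiz, by contrast, stayed lower in HSC-like and lymphoid-primed cells of the irradiated library, and also in its Ccl3-led and mitotic Nusap1-led clusters. In HSC-like cells Relb had 11.4 CPM in irradiated and 17.3 CPM in control cells, a log2 ratio of -0.60 (-1.03 to -0.19), and Nfkbiz had 54.1 irradiated and 86.6 control CPM, -0.68 (-0.87 to -0.49). In lymphoid-primed cells Relb stood at 7.42 irradiated and 13.1 control CPM, -0.81 (-1.30 to -0.36), and Nfkbiz at 62.7 irradiated and 87.5 control CPM, -0.48 (-0.64 to -0.32). In the Ccl3-led cluster the log2 ratios were -0.74 (-1.31 to -0.22) for Relb and -0.46 (-0.64 to -0.28) for Nfkbiz, and in the Nusap1-led cluster -0.86 (-1.11 to -0.62) and -0.63 (-0.75 to -0.52). Relb kept its call in these 4 classes under every alternative run, 9 to 13 a class. It reached -2.42 in HSC-like cells with 30 neighbours from all cells, which left 108 irradiated and 1921 control cells in that class. As reported, Relb rested on 55 irradiated UMIs in HSC-like cells and 32 in the Ccl3-led cluster. Nfkbiz kept its call under every alternative in HSC-like, lymphoid-primed and Nusap1-led cells, and lost it under 3 of 9 in the Ccl3-led cluster. In the Ung-led cluster Nfkbiz was called lower too (30.4 irradiated and 40.8 control CPM, -0.42), under 7 of 8 alternatives.

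Birc3 and Nfkbia followed in part. In megakaryocyte-primed and neutrophil-primed cells neither Relb nor Nfkbiz was called lower, with Nfkbiz at 19.9 irradiated and 20.6 control CPM in the megakaryocyte-primed class. Relb was little measured there. Its log2 ratio was 0.28 (-0.40 to 1.01) in megakaryocyte-primed cells, on 24 control UMIs. In neutrophil-primed cells it was 0.22 (-0.66 to 1.26), on 11 control UMIs and below the 5 CPM minimum. Birc3 was called lower in the Ccl3-led cluster (16.4 CPM in irradiated and 28.5 CPM in control cells, log2 -0.80), the Nusap1-led cluster (8.20 irradiated and 12.7 control CPM, -0.63), lymphoid-primed cells (16.4 irradiated and 22.3 control CPM, -0.44) and HSC-like cells (13.7 irradiated and 19.0 control CPM, -0.47). It was also called lower in megakaryocyte-primed cells (9.54 irradiated and 12.3 control CPM, -0.37), where the call ended under 4 of 10 alternatives. In HSC-like cells the Birc3 call ended under 4 of 13 alternatives: thinned cells (-0.10), cells weighted equally (-0.19), the members and lists kept in clustering (-0.18) and the smaller HSC-like cluster alone (0.20). Nfkbia was called lower in the Nusap1-led cluster (71.0 irradiated and 114 control CPM, -0.68), the Ccl3-led cluster (144 irradiated and 224 control CPM, -0.64), HSC-like cells (102 irradiated and 135 control CPM, -0.41) and the Ung-led cluster (83.8 irradiated and 106 control CPM, -0.34), and not in lymphoid-primed cells (151 irradiated and 169 control CPM, -0.17). These calls of Nfkbia ended under 0 of 10, 2 of 9, 2 of 13 and 4 of 8 alternatives in the order given. In megakaryocyte-primed cells Nfkbia was called higher (106 irradiated and 83.7 control CPM, 0.34), a call that ended under 6 of 10 alternatives and turned to -0.12 with each cell named by its own markers. Bcl3 was not called lower in any class, and in the Ung-led cluster it was called higher, at 9.81 irradiated and 6.51 control CPM, a log2 ratio of 0.59 (0.30 to 0.89) that was kept under all 8 alternatives. At a finer clustering 2 clusters had Ung among their leading genes and together formed the Ung-led class. The cluster with Nefh and E2f1 also among them held 513 irradiated and 878 control cells, and that with Ccl9 and Cebpa 556 irradiated and 188 control cells. That class was thus made up differently in the libraries. The cells of the main Ung-led cluster were not followed into these clusters, and the part of this in the Bcl3 difference was not tested. Nfkb2 was called lower in HSC-like cells, at 5.62 irradiated and 9.26 control CPM, a log2 ratio of -0.72 (-1.36 to -0.14) kept under all 13 alternatives, though it rested on 27 UMIs in irradiated and 199 UMIs in control cells. It was also called lower in the Ccl3-led cluster (4.92 irradiated and 6.49 control CPM, -0.40), on 15 irradiated and 133 control UMIs, with an interval that took in 0 (-1.28 to 0.38). That call ended under 3 of 9 alternatives, and its sign turned with cells of at most 5% mitochondrial UMIs (0.16).

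Tnfaip3 went in different directions in different classes. In megakaryocyte-primed cells it was higher, at 23.2 CPM in irradiated and 6.94 CPM in control cells, a log2 ratio of 1.74 (1.20 to 2.33) on 262 irradiated and 31 control UMIs. The 10 cells with the most held 26.7% of them among irradiated cells and 54.8% among control cells. In the Nusap1-led cluster it was lower, at 6.81 irradiated and 13.3 control CPM, a log2 ratio of -0.97 (-1.18 to -0.76), and likewise in lymphoid-primed cells, at 12.6 irradiated and 19.1 control CPM, -0.60 (-0.96 to -0.25). In the Ung-led cluster it was higher, at 10.7 irradiated and 8.45 control CPM, 0.33 (0.07 to 0.60), a call that ended under 3 of 8 alternatives. The irradiated megakaryocyte-primed cells had a UMI of Tnfaip3 in 9.09% of thinned cells, against 2.38% of the control cells, with intervals apart (above 6.71% and below 5.47%). The difference shrank to 0.06 when neighbours were taken from all cells at once, which left 142 control cells in the class, to 0.58 at a limit of 5% mitochondrial UMIs, to 0.59 at a finer clustering and to 0.72 with each cell named by its own markers.

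The share of thinned cells with no member seen lay closer within most classes than over all cells. It was 16.4% of irradiated and 14.6% of control HSC-like cells, 15.3% of irradiated and 14.4% of control lymphoid-primed cells, 25.1% of irradiated and 21.0% of control megakaryocyte-primed cells, and 26.4% of irradiated and 24.7% of control cells of the Ung-led cluster, with overlapping intervals in each. In neutrophil-primed cells it was 37.0% irradiated and 38.7% control, also overlapping. The intervals lay apart in the Ccl3-led cluster (17.2% of irradiated and 8.93% of control cells) and in the Nusap1-led cluster (31.0% irradiated and 21.1% control). The ratio of feedback to factor UMIs was lower in irradiated cells in 6 of the 7 classes, by as little as 1.07 irradiated and 1.09 control in the Ung-led cluster, and higher in megakaryocyte-primed cells (1.05 irradiated and 0.894 control).

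Counted by class, 5 of 10 members were called lower in HSC-like cells, against 16.8% of all genes measured there, and 0 higher, against 9.8%. In the Ccl3-led cluster 5 of 10 were lower (19.6% of genes) and 0 higher (12.3%), in lymphoid-primed cells 4 of 10 lower (15.9%) and 0 higher (9.92%), and in the Nusap1-led cluster 6 of 9 lower (21.8%) and 0 higher (10.5%). In megakaryocyte-primed cells 2 of 9 were lower (21.3%) and 2 higher (9.02%), in the Ung-led cluster 2 of 9 lower (17%) and 2 higher (9.3%), and in neutrophil-primed cells 1 of 7 lower (12.2%) and 0 higher (9.07%), and the lower calls of the megakaryocyte-primed and neutrophil-primed cells made up shares near the background. Members below the 5 CPM minimum of a class are left out of its count: Nfkb2 in 4 classes, and Relb and Tnfaip3 in neutrophil-primed cells.

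**Figure D3:**
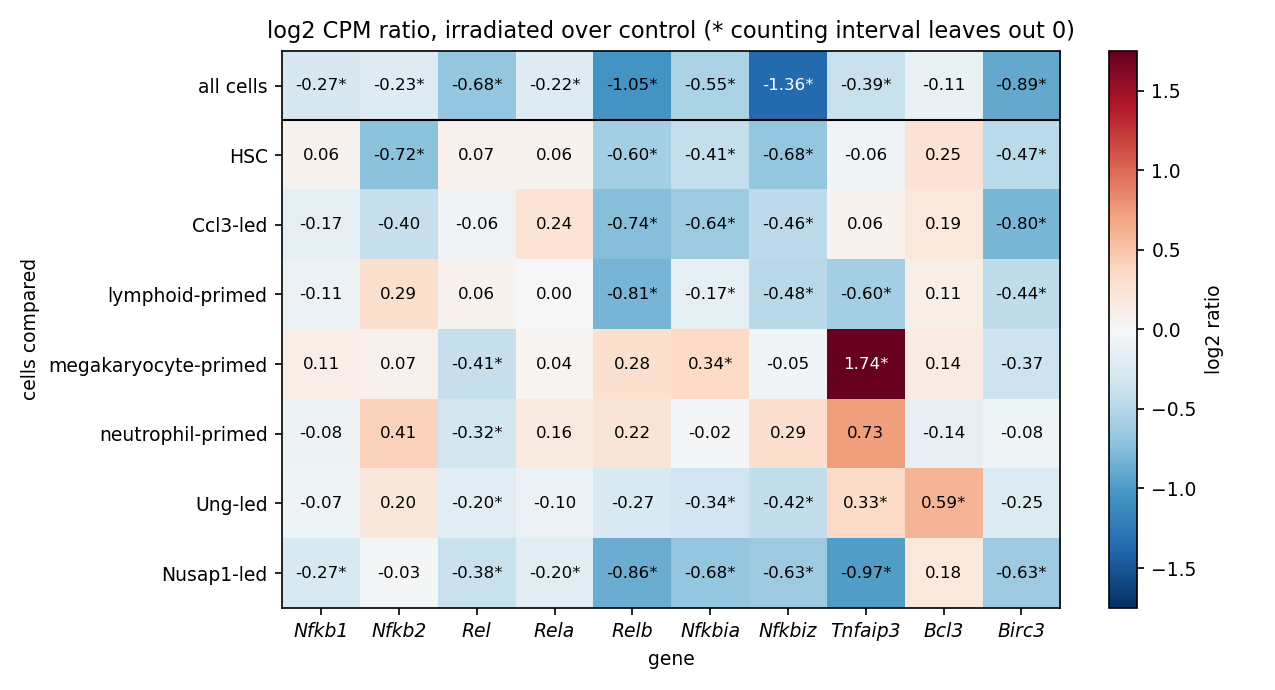
log2 CPM ratio of irradiated over control for each gene (columns) over all cells and within 7 classes (rows); blue is lower and red higher in the irradiated library, and a star marks a counting interval that leaves out 0. Relb and Nfkbiz are blue in the HSC, Ccl3-led, lymphoid-primed and Nusap1-led rows, Rel is near 0 in the first 3 of these, and Tnfaip3 is red in megakaryocyte-primed cells (1.74).

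Giving both libraries the same mix of 12 clusters separated the members. With the control mix, Relb had a log2 ratio of -0.61, Nfkbiz -0.52, Birc3 -0.51 and Nfkbia -0.43, so that 4 of 10 members were called lower, against 14.5% of genes, and 0 higher, against 6.34%. At that mix Rel had 44.4 CPM in irradiated and 48.1 CPM in control cells, a log2 ratio of -0.12 where it had -0.68 with each library's own mix. Nfkbiz had 45.8 CPM in irradiated and 65.5 CPM in control cells. With the irradiated mix, 3 of 9 members were called lower (Nfkbiz at -0.51, Relb at -0.34 and Tnfaip3 at -0.34), against 13.8% of genes, and 0 higher, against 5.27%. Birc3 (-0.31) and Nfkbia (-0.26) came short of a call at that mix. Both mixes took in clusters of at least 20 cells in each library, among them the erythroid-primed cells with 48 control cells. There Tnfaip3 stood at 49.1 irradiated and 87.4 control CPM, and 10 control cells held 83.5% of its UMIs. The part of these cells in the Tnfaip3 call was not tested. Rela was at 0.0003 with the control mix and at -0.004 with the irradiated mix.

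**Figure D4:**
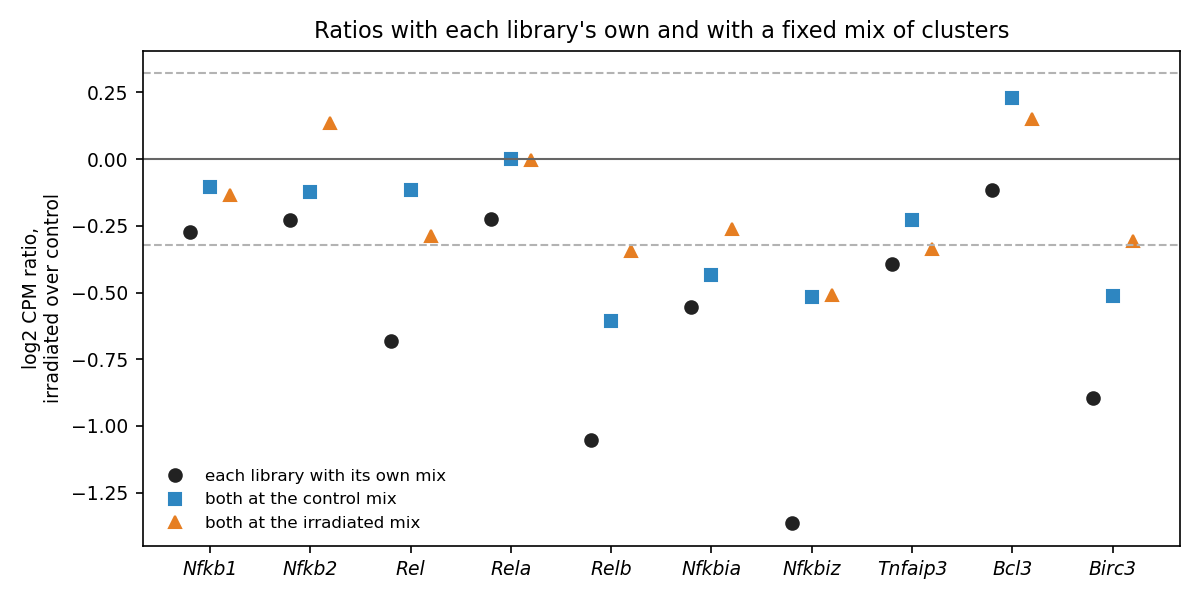
log2 CPM ratio of irradiated over control for each gene with each library's own mix of clusters (black), with both libraries at the control mix (blue) and with both at the irradiated mix (orange); dashed lines mark a log2 ratio of 0.32 either way. Rel lies at -0.12 and -0.29 with a fixed mix and at -0.68 without, while Nfkbiz (-0.52 and -0.51) stays beyond the dashed line.

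The rest of the pathway was read from gene lists, each given here over all cells and then with both libraries at the control mix. Of 26 measured receptors, adaptors and kinases upstream of the factors, 2 were called higher and 6 lower, both below the shares of all genes (17.2% higher and 28.3% lower), with a median log2 ratio of -0.08 beside -0.06 for all genes. Of those with a mean of at least 20 CPM, the lowest were Birc2, a ubiquitin ligase close to Birc3 (35.7 CPM in irradiated and 58.2 CPM in control cells, -0.70), Irak1, a kinase of the Toll-like and interleukin-1 receptors (-0.35), and Ikbkb, the kinase that marks IkB (39.5 irradiated and 48.1 control CPM, -0.28). The highest of these were Rbck1 (0.09), Tnfrsf1a (0.08) and Ripk1 (0.06), none of them a call. Below 20 CPM, Il1r1, an interleukin-1 receptor gene named here after its values were seen, stood lower still, at 8.20 irradiated and 29.6 control CPM (-1.85). Myd88, named likewise, stood higher, at 19.2 irradiated and 14.6 control CPM (0.40). With the control mix 1 of 27 was higher and 2 lower, against 6.34% and 14.5% of all genes.

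Of 17 other inhibitors of the pathway 3 were called higher, near the 17.2% of all genes, and 10 lower, against 28.3% (median -0.40). Of those with a mean of at least 20 CPM, Zfp36, which destroys cytokine mRNAs and is also an immediate early gene, stood at 172 CPM in irradiated and 409 CPM in control cells (-1.25), and the deubiquitinase gene Cyld (-0.57) and Rnf11 (-0.51) were also lower. Nfkbib, another IkB protein gene, went the other way, at 29.6 irradiated and 19.4 control CPM (0.61), as did Commd1 (0.39), while N4bp1 (0.14) was no call. Nfkbib was called higher in HSC-like (0.40), lymphoid-primed (0.47), megakaryocyte-primed (0.38), Ung-led (0.44) and Nusap1-led cells (0.50). Tnip3, a partner of the Tnfaip3 product named after its values were seen, averaged just under 20 CPM and stood at 6.25 irradiated and 32.0 control CPM (-2.36). Usp18, also with a mean below 20 CPM and named likewise, went the other way, at 23.0 irradiated and 9.35 control CPM (1.30). Its log2 ratios ran from 1.23 to 2.19 within the 7 classes. With the control mix 2 of 17 inhibitors were higher (6.34% of all genes) and 3 lower, near the 14.5% of all genes.

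Of 25 measured NF-kB target genes outside the members 4 were called higher, near the 17.2% of all genes, and 16 lower, against 28.3% (median -0.69). Of those with a mean of at least 20 CPM, the chemokine genes Ccl3 (46.0 CPM in irradiated and 295 CPM in control cells, -2.68) and Ccl4 (83.9 irradiated and 387 control CPM, -2.20) and the cytokine gene Ltb (17.0 irradiated and 82.3 control CPM, -2.28) were the lowest. All 3 are among the leading genes of the Ccl3-led cluster. Within the 7 classes the log2 ratios ran from -3.96 to -1.07 for Ccl3, from -1.91 to -0.64 for Ccl4 and from -2.67 to -0.06 for Ltb. Tnfaip2 (36.3 irradiated and 13.5 control CPM, 1.42) and the superoxide dismutase gene Sod2 (131 irradiated and 99.5 control CPM, 0.39) were higher, and the ferritin gene Fth1 was at -0.03. Below 20 CPM, Sdc4, named after its values were seen, was at 2.43 irradiated and 12.4 control CPM (-2.35). Cxcl10, named likewise, went the other way, at 24.6 irradiated and 6.54 control CPM (1.91). With the control mix 4 of 25 targets were higher (6.34% of all genes) and 7 lower (14.5%), with a median of -0.09.

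Immediate early genes, the first to be switched on by many stimuli, were lower beside the members. Of 23 measured, 1 was called higher and 20 lower, against 17.2% and 28.3% of all genes (median -1.17), with Egr1 at 85.1 CPM in irradiated and 269 CPM in control cells (-1.66), Fosb at -1.50 and Dusp2 at -1.45. The gene called higher was Atf3, with a mean below 20 CPM and named after its values were seen, at 20.8 irradiated and 12.5 control CPM (0.74). Myc (0.12) and Nr4a2 (0.11) were no calls and Mcl1 stood at -0.43. Within classes their median was -0.35 in HSC-like, -0.51 in Ccl3-led, -0.38 in lymphoid-primed, -0.28 in megakaryocyte-primed, 0.02 in neutrophil-primed, -0.64 in Ung-led and -0.64 in Nusap1-led cells. With the control mix 2 of 24 were higher and 15 lower, against 6.34% and 14.5% of all genes (median -0.52). Their part in the lower Nfkbiz, Relb, Birc3 and Nfkbia was not tested.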

How the data were processed

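The authors deposited, per sample, raw UMI counts of each gene in each barcode called as a cell. Per the submitters' processing notes they used Cell Ranger 2.1.1 and mm10, while the matrix headers give version 3.1.0. Barcodes were kept with at least 1000 UMIs, 500 genes and at most 10% mitochondrial UMIs. Scrublet marked 16 irradiated and 1 control cell as doublets, far below the expected 6%, so doublet removal did not work, and an alternative without the 6% highest scores was run. Counts were summed over cells and divided by library or class totals (CPM), from 162741683 UMIs in irradiated and 138113621 in control cells. Ratios carry exact Clopper-Pearson 95% intervals. They were tried on simulated independent Poisson counts only, which leave out the gathering of UMIs in few cells. The simulation therefore cannot show how well they cover in these data. With 1 library per group no test was possible; a gene was called by size at a log2 ratio of 0.32 either way.

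Clustering (scanpy 1.11.5) used 2000 variable genes, 30 components, 15 neighbours from each library and Leiden resolution 1, and left out cell cycle, ribosomal, mitochondrial and sex-linked genes, the members, their lists and immediate early genes. A cluster took a list's name with at least 3 of its markers among its 25 top genes by fold, at least 3 detected in 10% of its cells, and no other list ahead among its top 10 genes; the data had been seen when this rule was set. Classes were compared at 100 cells or more in each library. TMM factors came from edgeR 4.0.16. Coordinates came from GENCODE M21 (GRCm38). The members and lists were chosen with earlier results of these data known. From each list the text names the 3 highest and 3 lowest genes whose mean CPM reached 20, and some below it chosen after their values were seen. For Nfkb1 and Nfkbia it names the 5 genes of most similar profile.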

Additional observations from a re-analysis of the deposited data

Results flagged for a closer look

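The irradiated over control ratio of Tnfaip3 and of Nfkbia was called on opposite sides in different cell classes, each with a counting interval that left out 0; the difference between classes was not tested. For Tnfaip3 the log2 ratio was 1.74 in megakaryocyte-primed and 0.33 in Ung-led cells, and -0.60 in lymphoid-primed and -0.97 in Nusap1-led cells. For Nfkbia it was 0.34 in megakaryocyte-primed cells, and -0.41 in HSC-like, -0.64 in Ccl3-led, -0.34 in Ung-led and -0.68 in Nusap1-led cells. The megakaryocyte-primed Nfkbia call ended under 6 of 10 alternatives and that of Tnfaip3 under 1 of 10.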

How the results depend on the processing

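No paired analysis was possible because each group has 1 library and both carry the number 1. Over all cells, Rel, Relb, Nfkbia, Nfkbiz and Birc3 kept their calls under all 10 alternatives, Relb came short of 2-fold with TMM (-0.88), median of ratios (-0.84), at most 5% mitochondrial UMIs (-0.96), equal weights (-0.97) and thinning (-0.97), and Tnfaip3 lost its call under 4 (-0.22 with TMM, -0.18 with median of ratios, -0.24 with cells weighted equally and -0.15 thinned to 5000 UMIs). A CPM minimum of 20 left 3 members lower, and 2 upstream genes, 4 other inhibitors and 8 targets lower; with no minimum 10 upstream genes were lower.

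Counts of members by class moved as follows, counts being small. With 30 neighbours from all cells, 1 member was higher in each of HSC-like, Ccl3-led and lymphoid-primed cells, 3 were lower in Ccl3-led, 2 in lymphoid-primed, 0 in megakaryocyte-primed and 0 in neutrophil-primed cells. At resolution 0.5, 1 was higher in HSC-like cells. At resolution 1.5, 1 was higher in each of lymphoid-primed, megakaryocyte-primed and Ung-led cells and 0 were lower in neutrophil-primed cells. With marker genes left out of clustering, 1 was higher in HSC-like, 1 in Ung-led and 4 in megakaryocyte-primed cells, and 4 were lower in Ung-led, 0 in megakaryocyte-primed and 0 in neutrophil-primed cells. With the members and lists kept in clustering, 1 was higher in Ccl3-led and 1 in lymphoid-primed cells, and 3 were lower in Ccl3-led, 1 in Ung-led, 1 in megakaryocyte-primed and 0 in neutrophil-primed cells. With each cell named by its own markers, 1 was higher and 4 lower in megakaryocyte-primed and 0 lower in neutrophil-primed cells. At 5% mitochondrial UMIs, 1 was higher in Ccl3-led and 1 in lymphoid-primed cells. Without the highest doublet scores, 1 was higher in lymphoid-primed and 1 in Ung-led cells, and 1 was lower in megakaryocyte-primed and 0 in neutrophil-primed cells. Thinned to 5000 UMIs, 2 were higher in Ccl3-led and 3 in lymphoid-primed cells, and 3 were lower in HSC-like, 1 in Ung-led, 1 in megakaryocyte-primed and 2 in neutrophil-primed cells. With each cell weighted equally, 1 was lower in Ung-led, 1 in megakaryocyte-primed and 2 in neutrophil-primed cells. Among alternatives chosen after seeing the data, leaving out the 2% of cells with most UMIs of the gene gave 1 higher in each of HSC-like, neutrophil-primed, megakaryocyte-primed and lymphoid-primed cells and 0 lower in neutrophil-primed cells, each HSC-like cluster alone gave 1 higher, and leaving out shared barcodes, run over all cells only, moved neither count there.

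Signs turned for Birc3 in the smaller HSC-like cluster alone (0.20), Nfkb2 in Ccl3-led cells at 5% mitochondrial UMIs (0.16), and, with each cell named by its own markers, Nfkbia in megakaryocyte-primed cells (-0.12) and Nfkb2 (-0.20) and Tnfaip3 (-0.061) in neutrophil-primed cells. Without thinning, the difference in the share of cells, irradiated minus control, turned to 9.18 points for Nfkb1, 0.82 for Rel, 12.7 for Rela, 0.87 for Nfkbia and 1.40 for Tnfaip3, the irradiated cells being deeper. The other causes were not tested. Some alternatives gave no class to compare: resolution 0.5 had no Ccl3-led or megakaryocyte-primed cluster, 30 neighbours no Ung-led cluster, 5% mitochondrial UMIs left 88 Ung-led control cells, and naming by own markers gives none of the clusters named by leading genes. Depth limits members with few UMIs in a class, such as Nfkb2 in Ccl3-led cells (15 irradiated UMIs) and Tnfaip3 in neutrophil-primed cells (11 control UMIs).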
